A study of Mus musculus with 6 samples.

Results

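The genes of the NRF2 antioxidant response were described in diabetic wound tissue. They were 10 genes listed by name: Nfe2l2, Keap1, Hmox1, Nqo1, Gclc, Gclm, Gpx2, Srxn1, Txnrd1 and Sod2. All 10 were found among the 33184 gene IDs of the table, and all 10 averaged 0.5 FPKM or more, as did 16005 genes in total. FPKM divides the fragments of a gene by its length and by the sequencing total of its library. Levels of different genes can thus be set side by side only as far as the length taken fits their transcripts. The lengths behind these values, which count every exon, ran from 1553 bases for Nqo1 to 10008 for Sod2. The order of the genes by level can depend on them. Sod2 is better known as a target of NF-kB than of NRF2.

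NRF2, the product of Nfe2l2, is the transcription factor of the main antioxidant program of animal cells. Under resting conditions the adaptor KEAP1 holds NRF2 in the cytoplasm and passes it to a ubiquitin ligase for degradation. Electrophiles and oxidants modify KEAP1, after which NRF2 reaches the nucleus and, with a small MAF partner, binds antioxidant response elements beside genes for glutathione synthesis, thioredoxin reduction, quinone reduction and haem breakdown. In healing skin this program is known from keratinocytes and from macrophages that take up red blood cells and debris.

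The libraries were made by RNA-seq of whole wound tissue from db/db mice, which lack a working leptin receptor and become obese and diabetic, on the C57BL/Ks background. All mice had a round wound of 6 mm through the full skin. Around it, NC-siRNA (the control) or SFRP2-siRNA was injected at dpi1 (1 day post-injury), and tissue was harvested at dpi4, although the sample titles carry day 3. There were 3 NC libraries and 3 labelled SFRP2-siRNA (the siRNA-labelled libraries, siRNA 1 to 3). Whether the numbers 1 to 3 stand for separate siRNA sequences against SFRP2, which the supplement numbers alike, is not stated. The labels do not say whether the libraries came from separate mice, so p-values measure the spread between these samples, which may be technical. Unwounded skin and mice without diabetes were not analysed here.

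The FPKM steps corresponded to between 42925444 and 47117132 reads per library. Sfrp2, the siRNA target, had 11.6, 40.6 and 14.1 FPKM in NC 1, 2 and 3, and 50.6, 54.6 and 55.2 FPKM in siRNA-labelled libraries 1, 2 and 3. Its transcript was thus higher where the label calls for a knockdown, with a log2 fold change of 1.45 and an adjusted p of 0.518 by limma. The library names stand for labels only, and every direction below rests on them. Mitochondrially encoded genes took 35.8%, 22.2% and 17.4% of all FPKM in NC 1, 2 and 3, against 16.6%, 11.8% and 13.8% in siRNA-labelled libraries 1, 2 and 3. Of the 11 marker lists, none had a gene at 0 in any library, and the summed level did not overlap between the groups for 3: macrophage (1088 to 1745 FPKM in NC, 1948 to 2599 in the other group), fibroblast (935 to 2021 against 2257 to 2342) and sebaceous gland (3179 to 6973 against 754 to 2706). The sebaceous gland sum was carried mostly by Scd1 (2980 to 6830 FPKM in NC, 607 to 2488 in the other group). Gene by gene, 5 of the 7 sebaceous gland markers were higher in the siRNA-labelled libraries. Keratinocyte markers summed to 3929 to 6645 FPKM in NC and 3526 to 6836 in the other group. Of these 10 markers 8 were lower, with a list median log2 fold change of -0.20, whereas the most abundant, Krt14, was higher (0.25). Library siRNA 1 stood apart in its hair follicle markers, 23.3 FPKM in sum against 2437 to 5209 FPKM in the other 5 libraries. Sums also overlapped for wound-edge keratinocyte (1708 to 2951 against 1358 to 3201 FPKM), adipocyte (1669 to 2141 against 859 to 2294), skeletal muscle (3157 to 6230 against 4264 to 11825) and endothelial markers (62.3 to 88.8 against 58.8 to 106). In whole tissue, fewer cells of a type and less RNA per cell cannot be told apart.

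Across all 16005 genes none passed an adjusted p under 0.05 with an absolute log2 fold change above 1 (limma, two-sided, Benjamini-Hochberg), which is 0%. The unadjusted limma p was under 0.05 for 1533 genes, 9.58%, of which those higher in the siRNA-labelled libraries made up 6.72% of all genes and those lower 2.86%. That split of 1075 higher and 458 lower turned to 419 and 772 after median-of-ratios scaling and to 396 and 668 when mitochondrially encoded genes were left out of the scaling. By voom on recovered reads it was so for 1530 of 15888 genes, and again none passed the adjusted threshold. None of the 10 genes passed the adjusted threshold, and their adjusted p ranged from 0.518 to 0.994. Only Hmox1 had an unadjusted p under 0.05, on the higher side, 1 of the 10 beside 6.72% of all genes. Hmox1 was also the only one whose groups did not overlap, 1 of the 10 beside 17.8% of all genes, or 13.9% on the higher side and 3.92% on the lower. By direction, the log2 fold change was positive for 6 of the 10 and negative for 4. Counts of higher and lower genes, here and in all lists, go by this sign. The means of FPKM can differ from it, as for Gclm. The median of all genes was itself 0.125 higher on the log2 scale, and relative to it 4 of the 10 lay above and 6 below. That shift became -0.0001 after median-of-ratios scaling, 0.04 when mitochondrially encoded genes were left out of the scaling and 0.20 after rescaling to equal sums. The median log2 fold change of the 10 was 0.05.

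**Figure D1:**
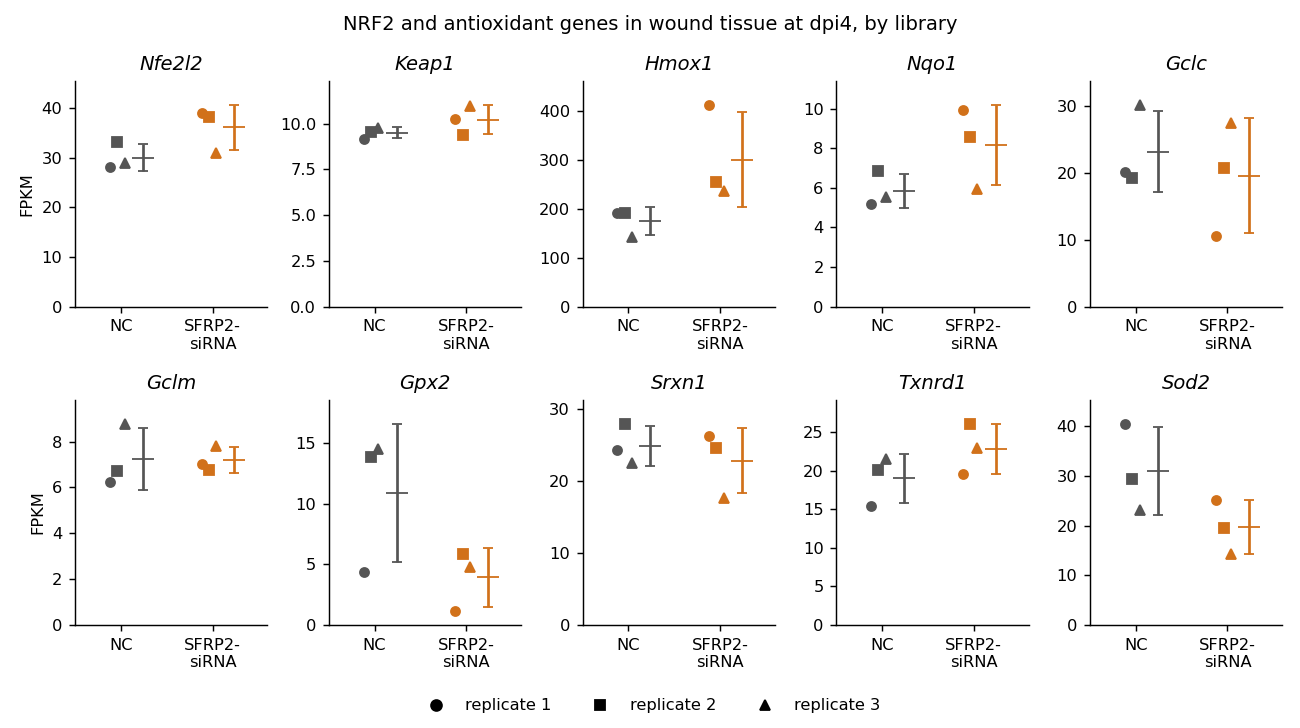
FPKM (vertical axes, each from 0) of the 10 genes in the 3 NC libraries (grey) and the 3 siRNA-labelled libraries (orange), with the marker shape giving the replicate number and the bar giving the mean ± SD over 3 libraries. Hmox1 is the only gene whose groups do not overlap (143 to 192 against 236 to 412 FPKM), and siRNA 1 is highest for Nfe2l2, Hmox1 and Nqo1 and lowest for Gclc and Gpx2.

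Hmox1 was the most abundant of the 10, at a mean of 238 FPKM over the 6 libraries and the 98.9th percentile of the genes kept. Its lowest library, at 143 FPKM, lay above the highest value of any of the other 9 genes. In order of mean level followed Nfe2l2 (33.1 FPKM), Sod2 (25.3), Srxn1 (23.9), Gclc (21.4) and Txnrd1 (21.0), whose ranges over libraries overlapped from each gene to the next. Then came Keap1 (9.86 FPKM), Gpx2 (7.42), Gclm (7.22) and Nqo1 (7.01), whose ranges also overlapped. Keap1 lay below its neighbour Txnrd1 in every library, although its range overlapped with that of Gclc, and Gpx2 reached up to 14.5 FPKM. From Nqo1 to Hmox1 the mean level differed 34.0 times.

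Antioxidant response elements share a core written TGACNNNGC, and the related AP-1 type element is written TGANTCA. Both were searched on both strands of the RefSeq promoter windows of build GRCm38.p6, which run from 250 bases before to 50 bases after a gene's start. The table held a window for 8 of the 10 genes and none for Hmox1 and Gclc. These 8 genes had 10 windows. TGACNNNGC was found in 4 of the 10 windows, in 4 genes, against 12.4% of all 32851 windows, and TGANTCA in 1, against 7.81%. The stretches below are shown because they hold such letters before the start of 4 of the genes whose values follow, the core TGACNNNGC in Nfe2l2, Gclm and Txnrd1 and TGANTCA in Srxn1. They are written in the direction of the gene with the match in capitals. The match lies 240 bases before the start in Nfe2l2 (chr2:75704871-75704913, minus strand), 134 in Gclm (chr3:122245399-122245455, plus strand), 102 and 45 in Srxn1 (chr2:152105398-152105452 and chr2:152105455-152105509, plus strand) and 92 in the second of the 3 windows of Txnrd1 (chr10:82859090-82859146, plus strand).
Nfe2l2: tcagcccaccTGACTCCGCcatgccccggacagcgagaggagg
Gclm: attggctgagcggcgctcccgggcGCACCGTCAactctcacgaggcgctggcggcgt
Srxn1 first: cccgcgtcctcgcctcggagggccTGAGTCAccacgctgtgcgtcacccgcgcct
Srxn1 second: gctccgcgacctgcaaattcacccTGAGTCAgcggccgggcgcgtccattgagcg
Txnrd1: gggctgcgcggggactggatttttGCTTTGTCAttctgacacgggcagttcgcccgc
In Gclm and Txnrd1 the core reads on the opposite strand. The TGACNNNGC match of Srxn1 lies 28 bases after its start and is not printed. The windows of Keap1, Nqo1, Gpx2 and Sod2 held neither run of letters. A match is a description of the letters and no measure of binding.

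The regulators were considered first. Nfe2l2 had 28.2, 33.2 and 28.9 FPKM in NC 1, 2 and 3, and 39.1, 38.4 and 31.0 FPKM in siRNA-labelled libraries 1, 2 and 3. The last of these lay below NC 2, so the groups overlapped. Means of 30.1 ± 2.68 FPKM in NC and 36.2 ± 4.50 FPKM in the other group were obtained (SD over 3 libraries, as for every ± given). The log2 fold change of 0.25 (95% interval -0.11 to 0.62) had an adjusted p of 0.55 by limma, and the exact permutation p was 0.2, where 0.1 is the smallest that 3 against 3 libraries allow. After median-of-ratios scaling the log2 fold change was 0.094. Transcript level is only part of NRF2 control, since KEAP1 acts on the protein.

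Keap1, which encodes that adaptor, spanned the narrowest range of the 10 over the 6 libraries, 1.20 times from lowest to highest. Its coefficient of variation was 3.15% in NC and 7.85% in the other group. It had 9.19, 9.56 and 9.78 FPKM in NC 1, 2 and 3, against 10.3, 9.39 and 11.0 FPKM. The groups overlapped, and the log2 fold change of 0.09 (95% interval -0.19 to 0.37, adjusted p = 0.722 by limma) ran from -0.06, after median-of-ratios scaling, to 0.18 over the 16 alternatives. An antisense gene, Gm16754, covers 10.9% of the exon bases of Keap1 and had 0.53 to 1.04 FPKM, and whether the counting used strand is not given in the sources used here. The log2 ratio of Nfe2l2 to Keap1, which no scaling of a library can change, was 1.66 ± 0.12 in NC and 1.82 ± 0.28 in the other group (exact permutation p = 0.4, 0.6 after adjustment over the 3 ratios tested). The difference of 0.16 became 0.10 without siRNA 1, 0.055 without siRNA 2 and 0.32 without siRNA 3.

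Hmox1 encodes haem oxygenase 1, the inducible enzyme that splits haem into biliverdin, iron and carbon monoxide. It had 190.6, 191.8 and 143 FPKM in NC 1, 2 and 3. The siRNA-labelled libraries 1, 2 and 3 had 412, 254 and 236 FPKM. All 3 lay above every NC library, and siRNA 1 was far above the other two. The means were 175 ± 27.7 and 301 ± 96.8 FPKM, a ratio of 1.72. The log2 fold change was 0.74 (SE 0.27, 95% interval 0.10 to 1.39), with an unadjusted limma p of 0.0298, an adjusted p of 0.518 and an exact permutation p of 0.1. Over the 16 alternatives the adjusted p ranged from 0.298 to 0.842. The separation depended on scaling: after median-of-ratios scaling the values were 225, 193 and 139 in NC and 391, 241 and 216 in the other group, which overlap, and the log2 fold change was 0.58 with an unadjusted limma p of 0.103. Leaving mitochondrially encoded genes out of the scaling gave 0.63 and an unadjusted p of 0.0742. Without siRNA 1 the log2 fold change was 0.50 with an unadjusted p of 0.0743, and without NC 3 it was 0.61 with 0.0962.

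The macrophage markers, phagocyte receptors and complement genes among them, were higher in the same libraries as Hmox1. All 12 of 12 were higher in the siRNA-labelled libraries by log2 fold change, 5 without overlap (13.9% of all genes), and none was at 0. Lyz2, the most abundant of them, had 585 ± 196 FPKM in NC and 1047 ± 156 in the other group. Hmox1 amounted to 17.5%, 11.0% and 12.4% of the summed macrophage markers in NC 1, 2 and 3, and to 15.9%, 12.3% and 12.1% in siRNA-labelled libraries 1, 2 and 3. Set against these markers, the groups overlapped and the highest share was in NC 1. Markers of red blood cells, which carry most of the haem of the body, summed to 2385, 1427 and 2026 FPKM in NC and 3387, 2231 and 2125 FPKM in the other group, also with an overlap. Library siRNA 1 was highest for Hmox1 and for both marker sums. The part of either cell type in the Hmox1 values was not tested.

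**Figure D2:**
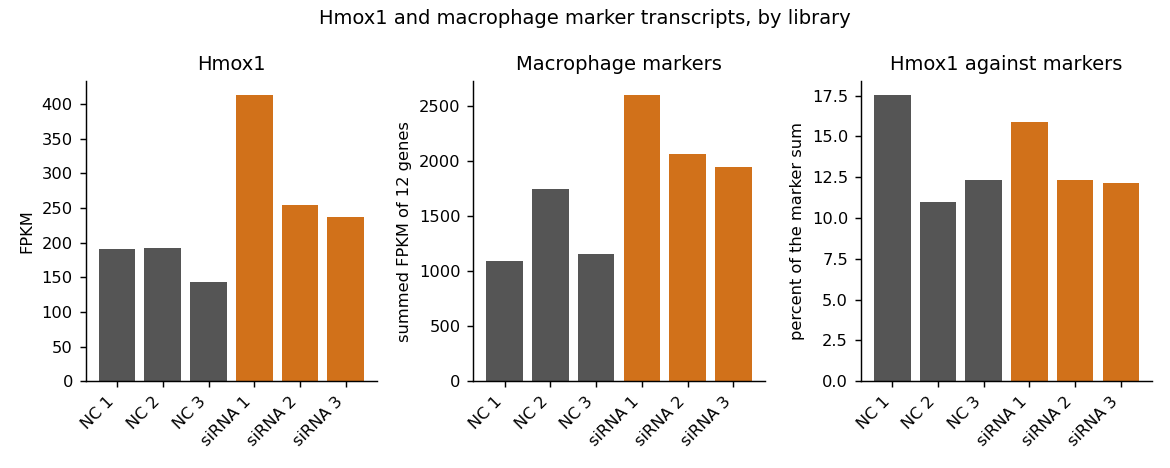
Bars from 0 for each of the 6 libraries (grey NC, orange labelled SFRP2-siRNA) of Hmox1 in FPKM, of the summed FPKM of the 12 macrophage markers and of Hmox1 as a percent of that sum. Hmox1 and the marker sum do not overlap between the groups, whereas the percent does (11.0 to 17.5 against 12.1 to 15.9).

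The genes with profiles most like Hmox1 over the 6 libraries were Csf2ra, Pf4 and Arhgdib, by a mean absolute difference of centred log2 values of 0.06, 0.07 and 0.08 among the 8109 genes that averaged 5 FPKM or more. Csf2ra encodes a receptor chain for GM-CSF and Pf4 a chemokine of platelets and some macrophages. For Nqo1 the nearest were Fnip2, H2-DMa and Prps1 (0.05 each), and for Nfe2l2 they were Lasp1 (0.02), Fam43a and Creg1 (0.03 each). Pf4 had 129, 117 and 94.2 FPKM in NC 1, 2 and 3 against 302, 153 and 155 FPKM. Like Hmox1 it was highest in siRNA 1, which follows from its choice by likeness of profile.

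Nqo1 encodes a reductase that takes quinones to hydroquinones in a single step and is the classic readout of NRF2. It had 5.18, 6.83 and 5.56 FPKM in NC 1, 2 and 3 and 9.95, 8.57 and 5.96 FPKM in siRNA-labelled libraries 1, 2 and 3. The third of these lay within the NC range. The means were 5.86 ± 0.86 and 8.16 ± 2.03 FPKM, with a log2 fold change of 0.40 (95% interval -0.07 to 0.87, adjusted p = 0.524 by limma). Leaving out siRNA 3 gave 0.58, with an unadjusted limma p of 0.0154 and an adjusted p of 0.50. Leaving out siRNA 1 gave 0.26 with an unadjusted p of 0.241, and median-of-ratios scaling gave 0.26 with 0.24. Between 355 and 663 reads per library lay behind these values, whereas the other genes except Gpx2 had at least 1699. The log2 ratio of Hmox1 to Nqo1 was 4.90 ± 0.27 in NC and 5.19 ± 0.26 in the other group, a difference of 0.29 with an overlap (exact permutation p = 0.2, 0.6 after adjustment over the 3 ratios). That difference became 0.44 without NC 1, 0.44 without siRNA 2 and 0.19 without NC 3. In single libraries Hmox1 was 25.7 to 36.8 times Nqo1 in NC and 29.7 to 41.5 times in the other group.

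Glutathione, the main small thiol of the cell, is made from glutamate, cysteine and glycine, and its rate is set by glutamate-cysteine ligase. Gclc encodes the catalytic subunit of that ligase and Gclm the modifier subunit that makes it more efficient. Gclc had 20.1, 19.2 and 30.1 FPKM in NC 1, 2 and 3, and 10.5, 20.8 and 27.5 FPKM in siRNA-labelled libraries 1, 2 and 3. Library siRNA 1 was the lowest of all, while the other two lay within the NC range. The log2 fold change was -0.30 (95% interval -1.14 to 0.54, adjusted p = 0.702 by limma), and without siRNA 1 it turned to 0.07. Gclm had 6.22, 6.73 and 8.78 FPKM in NC and 7.01, 6.78 and 7.82 FPKM in the other group, with means of 7.25 ± 1.36 and 7.20 ± 0.55 FPKM. All values of the second group lay within the range of the first. The interval of its log2 fold change ran from -0.36 to 0.37 (adjusted p = 0.994 by limma), and its sign turned under 6 of the 16 alternatives. Gm17494, on the opposite strand, and the pseudogene Gm6061 overlap 4.71% and 3.88% of the exon bases of Gclm.

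The proportion of catalytic to modifier transcript was lowest by far in 1 of the 6 libraries. Gclc was 3.23, 2.85 and 3.43 times Gclm in NC 1, 2 and 3, and 1.50, 3.07 and 3.51 times in siRNA-labelled libraries 1, 2 and 3. The log2 ratio was 1.66 ± 0.14 in NC and 1.34 ± 0.66 in the other group (exact permutation p = 0.7, also 0.7 after adjustment over the 3 ratios). Its difference of -0.32 turned to 0.05 without siRNA 1. That library was also the one with 23.3 FPKM of hair follicle markers, and the part of follicle tissue in the ratio was not tested.

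**Figure D3:**
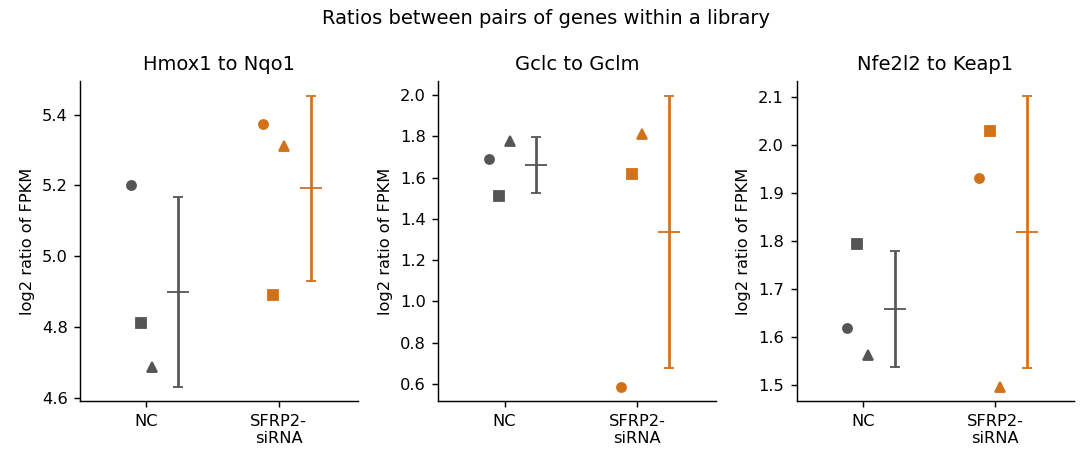
The log2 ratio of FPKM (vertical axes, not from 0) of Hmox1 to Nqo1, Gclc to Gclm and Nfe2l2 to Keap1 in each library, grey for NC and orange for the label SFRP2-siRNA, with circles, squares and triangles for replicates 1, 2 and 3 and bars for the mean ± SD of 3 libraries. The groups overlap in all 3 panels, and siRNA 1 lies apart in the Gclc to Gclm ratio at 0.59, against 1.51 to 1.81 in the other 5 libraries.

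Gpx2, a glutathione peroxidase of epithelia that removes hydrogen peroxide, varied most. It had 4.35, 13.8 and 14.5 FPKM in NC 1, 2 and 3, and 1.18, 5.82 and 4.79 FPKM in siRNA-labelled libraries 1, 2 and 3. From the lowest to the highest library it spanned 12.3 times, and NC 1 lay below both siRNA 2 and 3. The means were 10.9 ± 5.69 and 3.93 ± 2.43 FPKM, and the log2 fold change of -1.28 (SE 0.56, 95% interval -2.62 to 0.06) had an unadjusted p of 0.0579 and an adjusted p of 0.52 by limma. Without NC 1 it was -1.78 with an unadjusted p of 0.0173, and without siRNA 1 it was -0.77 with 0.128. After median-of-ratios scaling it was -1.41 with an unadjusted p of 0.0363. Within each group the library lowest for Gpx2 was also lowest for hair follicle markers, NC 1 with 2437 FPKM against 3273 and 4744, and siRNA 1 with 23.3 against 5209 and 3813. Across the groups this order did not hold. Libraries siRNA 2 and 3 exceeded NC 2 in these markers, yet had less Gpx2 (5.82 and 4.79 against 13.8 FPKM). The part of follicle tissue was not tested. The annotation holds a processed pseudogene, Gpx2-ps1, and whether reads of Gpx2 were split with it was not tested.

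Srxn1 and Txnrd1 serve the thioredoxin branch. Srxn1 encodes sulfiredoxin, which restores overoxidised peroxiredoxins, and had 24.3, 28.0 and 22.5 FPKM in NC 1, 2 and 3 against 26.3, 24.5 and 17.7 FPKM. The log2 fold change was -0.14 (95% interval -0.58 to 0.31, adjusted p = 0.737 by limma) and turned to 0.03 without siRNA 3. Txnrd1 encodes the cytosolic thioredoxin reductase, a selenoprotein that uses NADPH, and had 15.5, 20.2 and 21.5 FPKM in NC 1, 2 and 3 against 19.6, 26.1 and 23.0 FPKM. Its log2 fold change was 0.26 (95% interval -0.17 to 0.68, adjusted p = 0.576 by limma), which became 0.12 without NC 1 and 0.099 after median-of-ratios scaling. The groups overlapped for both genes.

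Sod2 encodes the manganese superoxide dismutase of mitochondria. It had 40.5, 29.3 and 23.2 FPKM in NC 1, 2 and 3, and 25.2, 19.4 and 14.4 FPKM in siRNA-labelled libraries 1, 2 and 3. Library siRNA 1 lay above NC 3, so the groups overlapped. The means were 31.0 ± 8.79 and 19.7 ± 5.43 FPKM, with a log2 fold change of -0.63 (SE 0.27, 95% interval -1.27 to 0.01, unadjusted p = 0.0532, adjusted p = 0.518 by limma). With median-of-ratios scaling it was -0.79 with an unadjusted p of 0.0496, and without siRNA 1 it was -0.82 with 0.0167. Without NC 1 it was -0.42 and without siRNA 3 it was -0.43, both with an unadjusted limma p of 0.162. The mitochondrially encoded share given above was also highest in NC 1 and second in NC 2, and its part in the Sod2 values was not tested. Of the 16 NF-kB responsive genes listed, Sod2 included, 14 were higher, with a list median of 0.46 on the log2 scale. Nfkb1 (0.37, adjusted p = 0.52) and Birc3 (0.57, adjusted p = 0.531 by limma) are examples, and Nfkb1 was the single gene of that list without overlap, 1 of 16 beside 13.9% of all genes on the higher side.

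**Figure D4:**
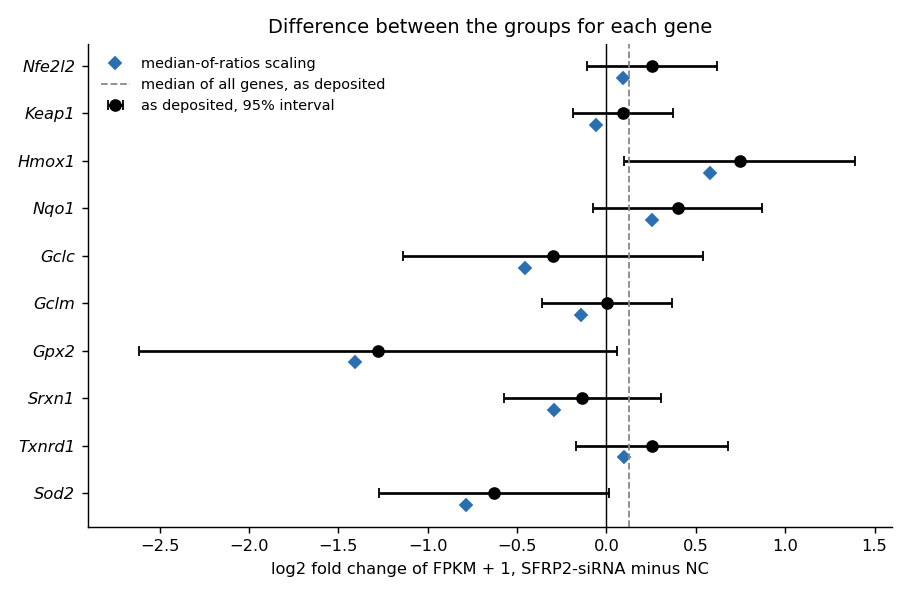
Log2 fold change of FPKM + 1 (horizontal axis, SFRP2-siRNA minus NC) of the 10 genes as deposited with the 95% interval (black) and after median-of-ratios scaling (blue), with a dashed line at the median of all genes, 0.125. The interval leaves out 0 for Hmox1 alone (0.10 to 1.39), and the scaling moves every gene to the left, Keap1 and Gclm across 0.

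The wider redox pathways were read from 9 hand-written lists, in which no adjusted p by limma lay below 0.518. Among the 15 regulators of NRF2 that could be tested, 14 were higher (10 above the median of all genes). The list median of the log2 fold change, 0.16 (0.01 after median-of-ratios scaling), was close to that of all genes. Mafg, a small MAF partner, had 0.32 and Bach1, the repressor that competes for the same elements, 0.43. Dcaf11, a ubiquitin ligase adaptor, had 0.20. Sqstm1, which encodes the KEAP1-binding autophagy receptor p62 and was picked out after its values were seen, had 86.6 ± 2.50 and 99.2 ± 7.07 FPKM. It was the single regulator without overlap, 1 of 15 beside 13.9% of all genes on the higher side.

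Of 32 genes of glutathione synthesis and use, 21 were higher (10 above the median of all genes) and 11 lower. The list median of 0.05 turned to -0.10 after median-of-ratios scaling. Gpx7, a peroxidase of the endoplasmic reticulum, had 16.9 ± 4.75 FPKM in NC and 26.6 ± 5.19 in the other group. Its unadjusted limma p of 0.0312 was the only one under 0.05 in that list, 1 of 32 beside 9.58% of all genes. Gpx7 was also the only gene higher without overlap, 1 of 32 beside 13.9% of all genes. Gsr, which reduces oxidised glutathione with NADPH, had 21.5 ± 3.39 and 33.7 ± 10.7 FPKM with an overlap. Gss, glutathione synthetase, had 5.53 ± 0.50 and 4.53 ± 0.41 FPKM. Singled out after its values were seen, it was the only gene lower without overlap, 1 of 32 beside 3.92% of all genes.

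The thioredoxin and peroxiredoxin genes were split, 9 higher and 11 lower of 20, with 3 non-overlapping each way (13.9% of all genes on the higher side and 3.92% on the lower) and a median of -0.03 (-0.19 after median-of-ratios scaling). On the lower side 3 members had an unadjusted limma p under 0.05, beside 2.86% of all genes. Msrb2, a methionine sulfoxide reductase, had 9.31 ± 0.62 and 5.47 ± 1.11 FPKM, and Prdx3, the mitochondrial peroxiredoxin, 84.7 ± 25.4 and 50.0 ± 8.14 FPKM. Txnrd2, the mitochondrial thioredoxin reductase, named after its values were seen, had 5.52 ± 1.47 and 3.20 ± 0.85 FPKM. Prdx4, the peroxiredoxin of the endoplasmic reticulum, had 12.7 ± 2.49 and 18.8 ± 1.98 FPKM. It alone had an unadjusted limma p under 0.05 on the higher side, 1 of 20 beside 6.72% of all genes. All 5 superoxide dismutase and catalase genes were lower, with a median of -0.23, and among them Cat had 117 ± 17.9 and 90.1 ± 16.7 FPKM and Sod1 42.3 ± 9.36 and 35.8 ± 7.06 FPKM. In each of the 5 the groups overlapped.

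Of 22 quinone and xenobiotic genes 17 were higher (15 above the median of all genes), with a median of 0.22 (0.07 after median-of-ratios scaling). Cbr2, a carbonyl reductase, had 87.6 ± 15.2 and 129.8 ± 21.9 FPKM. It was 1 of 3 genes among the 22 that were higher without overlap, beside 13.9% of all genes. Abcc3, an exporter of conjugates, had 3.18 ± 1.29 and 5.74 ± 1.93 FPKM, and Aox1, aldehyde oxidase, 4.16 ± 0.97 and 3.01 ± 0.28 FPKM. Aox1 was the only one lower without overlap, 1 of 22 beside 3.92% of all genes. Of 16 haem and iron genes 12 were higher (7 above the median of all genes), with a median of 0.08 that turned to -0.07 after median-of-ratios scaling. An unadjusted limma p under 0.05 was reached on the higher side by 4 of them, Hmox1 included, beside 6.72% of all genes. The others were Slc11a1, a metal transporter of phagosomes (16.3 ± 3.95 and 33.1 ± 12.2 FPKM), Cd163, the macrophage receptor for haemoglobin bound to haptoglobin (34.3 ± 12.4 and 60.9 ± 16.9 FPKM), and Ftl1, ferritin light chain, named after its values were seen (136 ± 15.5 and 199 ± 47.3 FPKM). Slc11a1 and Cd163 are, like the macrophage markers, known as genes of macrophages. The part of macrophages or of other cells in these values was not tested.

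NADPH is the electron source of both the glutathione and the thioredoxin branch. Of the 11 NADPH supply genes tested 9 were lower, 5 of them without overlap beside 3.92% of all genes, and the list median was -0.15 (-0.31 after median-of-ratios scaling). Me1, malic enzyme, had 134, 135 and 105 FPKM in NC 1, 2 and 3 and 56.1, 43.2 and 45.4 FPKM in siRNA-labelled libraries 1, 2 and 3. Tkt, transketolase, had 269, 188 and 130 FPKM against 71.2, 51.0 and 53.7 FPKM. Their log2 fold changes were -1.36 and -1.68, and both adjusted p were 0.518 by limma. Taldo1, transaldolase, had 147.8 ± 26.3 and 94.5 ± 13.6 FPKM. G6pdx and Pgd, the NADPH-forming steps of the pentose phosphate pathway, completed these 5 and were named after their values were seen (-0.45 and -0.46). Mthfd2, a mitochondrial folate enzyme named in the same way, was the only one higher without overlap (0.43), 1 of 11 beside 13.9% of all genes. Me1, Tkt, Taldo1, G6pdx and Pgd are known targets of NRF2, and the NADPH formed through Me1, G6pdx and Pgd also serves lipid synthesis. Sebaceous gland markers, carried mostly by Scd1, were lower in sum in the same libraries, 3179 to 6973 against 754 to 2706 FPKM, although 5 of the 7 were higher gene by gene. All 7 adipocyte markers were lower, with a list median of -0.24 and sums that overlapped. The part of either cell type in the NADPH supply genes was not tested.

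The phagocyte NADPH oxidase spends NADPH to make superoxide. Of 10 oxidase genes tested 8 were higher, 4 without overlap beside 13.9% of all genes, and the median was 0.66. Its subunit genes Cyba (39.8 ± 9.25 and 70.0 ± 19.7 FPKM) and Ncf1 (12.3 ± 4.26 and 20.9 ± 3.79 FPKM), both without overlap, had an unadjusted limma p under 0.05. In all, 3 of the 10 had such a p on the higher side, beside 6.72% of all genes. The 2 other genes without overlap were Nox4 and Rac1 (0.34 and 0.20 on the log2 scale), named after their values were seen. Macrophage markers had a list median of 0.72 and neutrophil markers one of 0.68, the latter with sums of 1168 to 1827 FPKM in NC and 1017 to 5582 FPKM in the other group. Their part in the oxidase genes was not tested.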

How the data were processed

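RNA-seq was performed on 6 wound libraries. The authors deposited 1 table of FPKM values. The submitters' processing notes name HISAT2, featureCounts and Subread. The genome build and annotation are not given in the sources used here. FPKM values are not counts, so the thresholds that the study applied with DESeq2 (adjusted p under 0.05, absolute log2 fold change above 1) were used with limma 3.58.1 (R 4.3.3; intensity trend, Benjamini-Hochberg) on log2(FPKM + 1) for genes averaging 0.5 FPKM or more. Fold changes on this scale understate those of low genes. With exon lengths from GENCODE vM21, or another length for 316 genes (Gpx2 included), 98.6% to 98.8% of values of up to 20 reads were whole within 0.02 reads, and voom was run on these reads. Of such values 64.6% were even, so mates were counted singly. No 2 libraries of a group agreed within sampling noise (chi-square per degree of freedom 106 to 309). For ratios an exact permutation test, two-sided, was used.

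The 10 genes and all lists were chosen with earlier results of these data known. Named were the 10 genes, Sfrp2, the 3 of each pathway list with the lowest p, the most abundant gene of a marker list where its list is discussed, and the 3 genes of most like profile for Hmox1, Nqo1 and Nfe2l2. An item that the rule names is not reported here. Symbols matched 32582 of 33184 IDs. Alternatives were another pseudocount (0.1), no filter or one at 2 FPKM, 3 scalings, no trend, sample weights, a replicate block, voom and leaving out each library.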

Additional observations from a re-analysis of the deposited data

How the results depend on the processing

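No gene, and none of the 10 described, passed the adjusted threshold under any of the 16 alternatives. The number of the 10 at an unadjusted limma p under 0.05, 1 as deposited, became 2 after median-of-ratios scaling and 2 without mitochondrially encoded genes in the scaling (Gpx2 and Sod2, both lower, in each case), 4 with estimated sample weights, and 1 to 2 when a library was left out. The number without overlap became 0 after median-of-ratios scaling and 2 to 3 when a library was left out, where fewer libraries make an overlap rarer by construction. The trend, weights, block and voom do not change it. Libraries that share a number deviated together for number 3 alone (correlations -0.05, -0.15 and 0.38), so no pairing was taken from the numbers. A replicate block gave 3 of the 10 at an unadjusted p under 0.05, Hmox1 higher (0.0179) and Gpx2 (0.000211) and Sod2 (0.00395) lower, and no adjusted call (limma). Signs turned for Keap1 (-0.059 after median-of-ratios scaling, -0.0095 without mitochondrial genes) and for Gclm (-0.14 and -0.094 under the same scalings, -0.081 with sample weights). When a library was left out, the log2 fold change ran from -0.58 to 0.074 for Gclc (positive without siRNA 1), from -0.087 to 0.13 for Gclm (negative without NC 1, NC 2 or siRNA 3) and from -0.24 to 0.031 for Srxn1 (positive without siRNA 3), and the difference of the Gclc to Gclm log2 ratio from -0.56 to 0.054 (positive without siRNA 1). List medians moved after median-of-ratios scaling to 0.010 for regulators, -0.10 for glutathione, -0.19 for thioredoxin (-0.14 without mitochondrial genes), 0.067 for quinone, -0.074 for haem and iron and -0.31 for NADPH supply. The causes of these moves were not tested. With 3 libraries a group, the intervals of 9 of the 10 genes include 0.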

Other observations

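Nnt, which encodes the mitochondrial transhydrogenase that makes NADPH from NADH, was listed at 0 to 0.0387 FPKM, or 0 to 12 reads, in the 6 libraries, and was the only gene of the NADPH supply list left out by the filter. It was picked out after its values were seen. The C57BL/6J strain is known to carry a deletion in Nnt, and the study names its mice as C57BL/Ks. Which allele these mice carry was not tested.

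The library siRNA 1 was lowest for some other genes of glutathione handling besides Gclc and Gpx2, picked out in the same way. Ggt1, which starts the breakdown of extracellular glutathione, had 0.28 FPKM there and 4.54 to 9.02 FPKM in the other 5 libraries. Chac1, which degrades glutathione inside the cell, had 4.20 FPKM against 22.0 to 48.2 FPKM. Low values in siRNA 1 were no trait of the whole glutathione list. Other genes of it were highest in that library, among them Gsr (42.8 against 18.9 to 36.3 FPKM) and Gpx7 (32.5 against 12.4 to 24.5 FPKM). Hair follicle markers in the same library were at 23.3 FPKM in sum against 2437 to 5209 FPKM, and their part in these values was not tested.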
